A study of Mus musculus with 8 samples.

Results

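The 9 genes described here encode enzymes and a regulatory subunit of glycogen synthesis and breakdown: Gys1, Gys2, Gyg, Gbe1, Ugp2, Ppp1r3c, Pygl, Pygb and Pygm. They were taken by symbol from the annotation of a mouse Affymetrix array, on which they were represented by 15 of the 20380 probe sets with 1 gene, and by 9 of 12393 genes. The genes were chosen for their function, with earlier results of these data known. Gys2, which gives the set its interest, was picked on its measured intensities. It was one of the largest increases under rosiglitazone in cells with the PRDM16 shRNA. RNA was measured in adipocytes differentiated in culture from stromal-vascular (SV) cells, the fat cell precursors of the inguinal depot, taken from male C57BL/6J mice of unstated age. The groups were cells with an shRNA named sh-PRDM16 and 1 µM rosiglitazone, sh-PRDM16 cells without the drug, cells with a control shRNA named sh-scr and 1 µM rosiglitazone, and sh-scr cells without the drug, with 2 arrays in each group. They are called treated sh-PRDM16, untreated sh-PRDM16, treated sh-scr and untreated sh-scr. Both control arms therefore also carry an shRNA, and neither the vector nor its promoter was stated. Rosiglitazone is a thiazolidinedione that activates the nuclear receptor PPARγ, and PRDM16 is a zinc finger protein that helps switch on the brown fat programme. The comparisons ask how each gene's RNA differed with the drug in either line and with the knockdown under either condition.

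Glycogen is the branched storage polymer of glucose. Ugp2 makes the sugar donor UDP-glucose, the glycogenin Gyg primes the chain, the glycogen synthases Gys1 (the muscle and general isoform) and Gys2 (the liver isoform) lengthen it, and the branching enzyme Gbe1 adds branch points. Ppp1r3c, also called PTG, ties protein phosphatase 1 to glycogen, where the phosphatase activates synthase and inactivates phosphorylase. The phosphorylases Pygl (liver), Pygb (brain) and Pygm (muscle) release glucose 1-phosphate from the chain. Fat cells hold a small, rapidly exchanged glycogen store, and Gys2 has been described in mouse liver as a target of PPAR receptors.

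RefSeq promoter windows (GRCm38.p6, 250 bases before to 50 after the start) were found for 8 of the 9 genes, all but Gys2. The windows of Gyg (chr3:20155067-20155366, minus strand), Gbe1 (chr16:70313699-70313998, plus strand), Pygl (chr12:70227634-70227933, minus strand) and Ppp1r3c (chr19:36736555-36736854, minus strand) are shown, since these 4 genes were called lower in sh-PRDM16 cells both with and without the drug. Capitals mark matches, on either strand, to the motifs searched: AGGTCA, bound by nuclear receptors, its direct repeat AGGTCANAGGTCA, the E-box CACGTG, the CCAAT box, the GC box GGGCGG and TATAAA.
Gyg: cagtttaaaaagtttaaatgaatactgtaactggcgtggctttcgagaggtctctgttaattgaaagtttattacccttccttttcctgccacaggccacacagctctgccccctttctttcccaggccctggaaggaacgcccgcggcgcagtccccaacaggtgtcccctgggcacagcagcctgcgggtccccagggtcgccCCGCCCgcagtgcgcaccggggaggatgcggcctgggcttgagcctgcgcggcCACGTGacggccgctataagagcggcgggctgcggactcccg
Gbe1: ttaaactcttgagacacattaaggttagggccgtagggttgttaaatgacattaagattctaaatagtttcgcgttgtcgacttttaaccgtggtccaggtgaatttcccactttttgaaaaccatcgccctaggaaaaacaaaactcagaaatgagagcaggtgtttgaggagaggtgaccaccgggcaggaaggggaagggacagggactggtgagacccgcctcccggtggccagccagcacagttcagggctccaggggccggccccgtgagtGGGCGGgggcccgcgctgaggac
Pygl: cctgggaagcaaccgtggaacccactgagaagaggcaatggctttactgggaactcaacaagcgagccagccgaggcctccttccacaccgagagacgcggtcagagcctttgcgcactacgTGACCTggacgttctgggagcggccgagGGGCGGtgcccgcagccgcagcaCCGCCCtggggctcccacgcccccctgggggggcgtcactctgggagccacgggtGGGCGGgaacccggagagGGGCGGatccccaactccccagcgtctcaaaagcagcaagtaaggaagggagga
Ppp1r3c: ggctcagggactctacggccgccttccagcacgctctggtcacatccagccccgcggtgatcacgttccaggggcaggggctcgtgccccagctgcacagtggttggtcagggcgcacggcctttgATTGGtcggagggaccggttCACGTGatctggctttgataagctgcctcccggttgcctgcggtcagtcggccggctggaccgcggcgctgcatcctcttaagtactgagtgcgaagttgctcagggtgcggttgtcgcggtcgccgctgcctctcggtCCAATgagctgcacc
The 4 windows shared no single motif. AGGTCA was found once in the Pygl window, in which GGGCGG was found 4 times, and 16.3% of all 32851 windows held AGGTCA. The E-box CACGTG was found once each in the Gyg and Ppp1r3c windows, against 7.15% of all windows. Ppp1r3c also held 2 CCAAT matches (37.4% of all windows held 1 or more), and Gyg and Gbe1 held 1 GGGCGG match each (35.7% of all windows). TATAAA (13.6% of all windows) and AGGTCANAGGTCA (0.0396%) were in none of the 4, and a match in a window is a description of its letters and not evidence of binding.

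Values are array intensities on a linear scale, and changes are differences of log2(intensity + 16), which understate the change of dim genes. All 15 probe sets passed a filter that left out the 25% of probe sets with the lowest mean (those tested had means of 19.7 or more), so that changes were tested with limma over 15285 probe sets with Benjamini-Hochberg adjustment at 0.05. Array medians lay between 100.7 and 135.65, and replicate arrays correlated at 0.9905 to 0.9915 over probe sets. In sh-scr cells the median change of all probe sets with rosiglitazone was log2 -0.30, so small falls there depend on the scale, and calls were repeated on arrays centred on their medians. The sample titles mark both replicates of each group as biological, with no word on separate cultures or animals, so the p-values reflect the spread among these arrays, whose number limits the precision. Prdm16 RNA itself was not analysed here, since 0 probe sets carry its name, and the knockdown rests on the labels.

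Markers of cell types were read as summed linear intensities, in which bright genes weigh most, so close sums can hide changes of dimmer markers. The brightest were Fabp4 (adipocyte), Lyz2 (macrophage), Acta1 (skeletal muscle), Emcn (endothelium) and Thy1 (preadipocyte and fibroblast). Of 6 adipocyte markers 5 were measured, with sums of 40877 to 43341 in treated sh-PRDM16 arrays, 28501 to 33021 in untreated sh-PRDM16 arrays, 44089 to 46202 in treated sh-scr arrays and 42382 to 42554 in untreated sh-scr arrays. Of these 5 markers 4 fell in untreated sh-PRDM16 against untreated sh-scr cells. All 8 hepatocyte markers, Alb and Hnf4a among them, were below the filter on low values, with sums between 27.0 and 120 on every array. The 6 macrophage markers summed to 816 to 866 in treated sh-PRDM16, 1008 to 1087 in untreated sh-PRDM16, 2942 to 2968 in treated sh-scr and 4618 to 5016 in untreated sh-scr arrays, and 4 of them fell in each knockdown comparison. Of 8 skeletal muscle markers 5 passed the filter (Ckm, Myh4 and Tnnt3 did not), with sums of 2900 to 2973, 3512 to 3809, 917 to 1144 and 2351 to 2394 in the same order of groups. The 6 endothelial markers summed to 340 to 376, 526 to 630, 363 to 404 and 615 to 779, and the 6 preadipocyte and fibroblast markers to 15388 to 15466, 18673 to 21504, 11834 to 13546 and 20243 to 20945. The part of these differences in the changes of the glycogen genes was not tested. In such bulk samples fewer cells of a type and less RNA per cell cannot be told apart.

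With the PRDM16 shRNA, RNA of Gyg, Gbe1, Pygl and Ppp1r3c (by its brighter probe set) was called lower, both without and with rosiglitazone. In treated cells each of these calls was lost under some alternatives. The dimmer Ppp1r3c probe set was not called there (log2 -0.43, adjusted p = 0.238 in limma). In untreated cells 5 of 14 probe sets (Gys2 left aside) fell and 0 rose, where 10.9% of all probe sets fell and 1.25% rose (12.2% in either direction), and 4 of 5 adipocyte and 4 of 6 macrophage markers fell there too. There 1 skeletal muscle and 2 preadipocyte and fibroblast markers fell as well, and 1 skeletal muscle marker rose. In treated cells 4 of 14 fell and 0 rose, where 3.42% of all probe sets fell and 6.93% rose (10.4% in either direction). Of the markers, 1 adipocyte, 4 macrophage, 1 skeletal muscle and 1 endothelial marker fell in treated cells. In the same comparison 1 skeletal muscle and 1 preadipocyte and fibroblast marker rose. The share of all probe sets that fell in treated cells depended on the scale, at 9.83% on median-centred and 9.87% on quantile-normalized arrays, and in untreated cells it was 9.47% and 9.54%. On both scales 4 of 14 member probe sets fell in each knockdown comparison, those of Gyg, Gbe1, Pygl and Ppp1r3c 1433691_at. With rosiglitazone Gbe1 rose in both lines, Gyg in sh-PRDM16 cells, and Gys2 and 1 probe set of Gys1 in sh-scr cells, while no Ugp2 probe set was called. In sh-PRDM16 cells 2 of 14 probe sets rose, those of Gyg and Gbe1, and 0 fell, against 7.50% and 2.26% of all probe sets (9.77% in either direction). In sh-scr cells 3 of 15 rose, those of Gys2, Gys1 and Gbe1, and 4 fell, those of Ppp1r3c (2 probe sets), Pygb and Pygl, against 4.0% and 25.4% of all probe sets (29.4% in either direction). In that comparison 2 of 5 adipocyte markers rose, and 5 of 6 preadipocyte and fibroblast, 3 of 6 macrophage, 3 of 5 skeletal muscle and 2 of 6 endothelial markers fell. In sh-PRDM16 cells 2 adipocyte markers rose and 1 macrophage and 2 endothelial markers fell. On median-centred arrays the 4 falls of member probe sets in sh-scr cells were no longer called. There 4 probe sets rose, Gyg being added, against 12.1% of all probe sets that rose and 8.61% that fell. In sh-PRDM16 cells median-centred arrays gave 3 rises and 0 falls, Gys1 being added (12% and 7.54% of all probe sets).

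The median change of the 8 genes other than Gys2, each by its brightest probe set, was log2 0.16 with rosiglitazone in sh-PRDM16 cells and -0.04 in sh-scr cells, against medians of 0.00 and -0.30 over all probe sets. For the knockdown it was log2 -0.43 in treated and -0.57 in untreated cells, against 0.15 and -0.16 over all probe sets. Over all 15 member probe sets, of which 5 belong to Ugp2, the medians were log2 0.14 and -0.07 with rosiglitazone in sh-PRDM16 and sh-scr cells, and -0.07 and -0.26 for the knockdown in treated and untreated cells. The difference between the 2 rosiglitazone responses was called for 0 of 14 probe sets in limma, against 0.157% of all probe sets. These calls were of a larger value in sh-PRDM16 cells for 0.124% and of a smaller value for 0.0327%. At an unadjusted p under 0.05 there was 1 of 14, that of Gyg, against 3293 of all 15285 probe sets. That 1 is not above the share among all probe sets. Complete separation of the 4 arrays compared was common and is not read as a result: it was seen for 11 of 14 probe sets with rosiglitazone in sh-PRDM16 cells (48.5% of all probe sets) and 11 of 15 in sh-scr cells (74.1%), and for the knockdown for 7 of 14 with the drug (62.1%) and 9 of 14 without it (55.4%). The 2 responses and the 2 knockdown comparisons use the same 8 arrays, so they are not independent of each other.

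**Figure D1:**
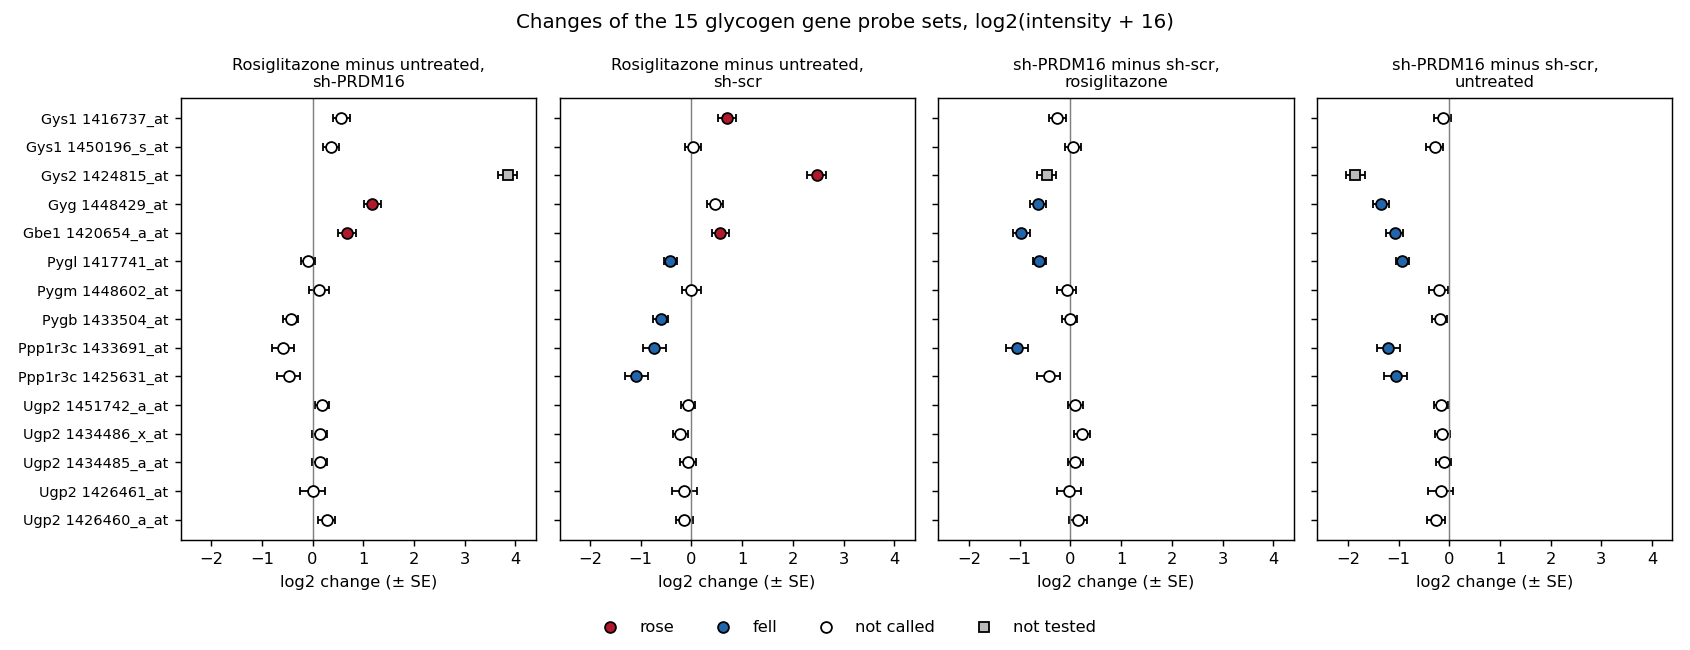
Log2 changes, on the log2(intensity + 16) scale, of the 15 probe sets (rows) in the 4 comparisons (panels), with points at the estimate and bars for ± 1 standard error of the limma fit. Filled circles passed the test, open circles did not, and grey squares are Gys2 where no test was made; Gys2 lies farthest to the right in both rosiglitazone panels, at 3.85 and 2.47.

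Gys2, the liver isoform of glycogen synthase (chromosome 6, 142422612 to 142473130, GRCm38.p6), rose with rosiglitazone in sh-scr cells and was lowest in untreated sh-PRDM16 cells. Its probe set, 1424815_at, read 388.7 and 411.1 in treated sh-PRDM16 arrays, 11.1 and 14.5 in untreated sh-PRDM16 arrays, 578.0 and 541.2 in treated sh-scr arrays, and 68.6 and 111.3 in untreated sh-scr arrays. From high to low the order was treated sh-scr, treated sh-PRDM16, untreated sh-scr and untreated sh-PRDM16, and no neighbouring groups overlapped. In sh-scr cells, whose arrays were not in the comparison that singled it out, Gys2 rose 6.22-fold with rosiglitazone, from the ratio of mean intensities. The log2 change was 2.47 (SE 0.19, adjusted p = 0.000286 in limma). The spread in this test was taken over all 8 arrays, those of sh-PRDM16 cells included, so the test is not fully independent of the choice. The rise set both treated arrays above both untreated arrays and was the 21st largest increase of 15285. It stayed past the threshold under all 19 alternatives tried, at log2 2.03 to 2.77.

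The rise of Gys2 in sh-PRDM16 cells led to its choice and is given without a test. There the mean was 399.9 ± 15.8 in treated and 12.8 ± 2.4 in untreated arrays (SD, n = 2 each), and the log2 change was 3.85 (SE 0.19). The untreated sh-PRDM16 mean lies under 19.7, the lowest mean tested, and was not shown to be above background. With that mean set to 19.7, the ratio of treated to untreated sh-PRDM16 cells would be 20.3. Without the drug the ratio of sh-PRDM16 to sh-scr cells would then be 0.219 (log2 -1.85 from the measured values, SE 0.19). The 19.7 is a limit of the filter and not a measured background, so neither ratio is a bound on the true change. With the drug the ratio of sh-PRDM16 to sh-scr cells was 0.715 (log2 -0.47, SE 0.19). The 2 rosiglitazone responses differed by log2 1.38 (SE 0.27). The log2 sizes depend on the pseudocount: with 64 and with 1, the response in sh-PRDM16 cells was log2 2.59 and 4.87, the untreated knockdown difference -0.99 and -2.69, and the difference of responses 0.56 and 2.21. On median-centred arrays the last was 1.07.

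Gys1, the isoform of muscle and most other tissues (chromosome 7, 45434839 to 45456617), had 2 probe sets. The brighter, 1416737_at, read 503.2 and 679.2 in treated sh-PRDM16, 421.5 and 358.7 in untreated sh-PRDM16, 709.7 and 698.7 in treated sh-scr, and 450.0 and 408.1 in untreated sh-scr arrays. All 4 treated arrays were above all 4 untreated arrays. With rosiglitazone it rose by log2 0.70 in sh-scr cells (SE 0.17, adjusted p = 0.0207), or 1.64-fold. In sh-PRDM16 cells the change of log2 0.57 (SE 0.17) missed the threshold at adjusted p = 0.0705, and passed on median-centred arrays (log2 0.55, adjusted p = 0.0269) and without treated sh-PRDM16 replicate 1 (log2 0.78, adjusted p = 0.0469). The knockdown differences were log2 -0.26 with and -0.13 without rosiglitazone (adjusted p = 0.327 and 0.662). The other probe set, 1450196_s_at, whose suffix marks probes that match several transcripts, read 92.5 and 128.9, 81.8 and 80.5, 108.2 and 101.5, and 104.8 and 100.3 in the same order of groups. It was not called in any comparison, and in sh-scr cells it changed by log2 0.03 (adjusted p = 0.903), so the probe sets of Gys1 disagree there. Without any 1 of the 4 sh-scr arrays the rise of 1416737_at was not called (log2 0.63 to 0.76, adjusted p = 0.0623 to 0.106), nor for the mean of both probe sets (log2 0.36).

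Gyg, the self-glucosylating primer of glycogen (chromosome 3, 20122083 to 20155117), was lower in sh-PRDM16 cells and rose there with rosiglitazone. It read 1268.1 and 1671.2 in treated sh-PRDM16, 651.2 and 613.7 in untreated sh-PRDM16, 2126.9 and 2450.0 in treated sh-scr, and 1584.0 and 1701.2 in untreated sh-scr arrays. Treated sh-PRDM16 and untreated sh-scr arrays overlapped, and the other groups stood apart. In untreated cells Gyg fell with the knockdown (log2 -1.35, SE 0.16, adjusted p = 0.00162), a ratio of 0.385. With rosiglitazone in sh-PRDM16 cells it rose by log2 1.18 (SE 0.16, adjusted p = 0.00262), or 2.32-fold, and both these calls held under all 19 alternatives. In treated cells Gyg was lower with sh-PRDM16 than with sh-scr, at a ratio of 0.642 (log2 -0.64, SE 0.16, adjusted p = 0.0429). This call was lost without any 1 array other than treated sh-PRDM16 replicate 2 (log2 -0.74 to -0.45). In sh-scr cells the response of log2 0.47 (SE 0.16) missed the threshold at adjusted p = 0.0581, and passed on median-centred arrays (log2 0.76, adjusted p = 0.0114) and without either treated sh-PRDM16 array (log2 0.47, adjusted p = 0.0486). The 2 responses differed by log2 0.71 (SE 0.23, adjusted p = 0.186).

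Gbe1, the branching enzyme (chromosome 16, 70313949 to 70569720), moved in the same directions in both lines. It read 361.0 and 436.4 in treated sh-PRDM16, 273.5 and 213.5 in untreated sh-PRDM16, 726.6 and 862.8 in treated sh-scr, and 548.0 and 509.6 in untreated sh-scr arrays. No groups overlapped, and both sh-PRDM16 groups lay under both sh-scr groups. Gbe1 was lower in sh-PRDM16 than in sh-scr cells, both treated (log2 -0.97, SE 0.17, adjusted p = 0.0118) and untreated (log2 -1.08, SE 0.17, adjusted p = 0.00534), at ratios of 0.502 and 0.46. Rosiglitazone raised it by log2 0.68 in sh-PRDM16 cells (SE 0.17, adjusted p = 0.0396) and by 0.57 in sh-scr cells (SE 0.17, adjusted p = 0.0375), or 1.64-fold and 1.5-fold. The knockdown call in untreated cells held under all 19 alternatives, while that in treated cells was lost without treated sh-scr replicate 2 (log2 -0.85, adjusted p = 0.0765) or treated sh-PRDM16 replicate 1 (log2 -0.84, adjusted p = 0.0715). The rise in sh-scr cells was lost without any 1 of the 4 sh-scr arrays (log2 0.45 to 0.69, adjusted p = 0.055 to 0.201), and that in sh-PRDM16 cells without either untreated sh-scr or treated sh-PRDM16 array or untreated sh-PRDM16 replicate 2 (log2 0.51 to 0.81, adjusted p = 0.0544 to 0.202).

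Ugp2, which makes UDP-glucose (chromosome 11, 21321126 to 21371267), had 5 probe sets, and 0 of them were called in any comparison. The brightest, 1451742_a_at, read 2345.0 and 2710.7 in treated sh-PRDM16, 2343.1 and 2088.7 in untreated sh-PRDM16, 2353.8 and 2343.6 in treated sh-scr, and 2398.9 and 2542.6 in untreated sh-scr arrays. With rosiglitazone its log2 change was 0.19 in sh-PRDM16 cells (95% interval -0.13 to 0.50) and -0.07 in sh-scr cells (-0.39 to 0.24). The knockdown differences were 0.10 with the drug (-0.21 to 0.41) and -0.16 without it (-0.47 to 0.16). These intervals bound the change and do not show that there was none, and the sign of 3 of these 4 values was turned on median-centred arrays, at log2 0.22 for rosiglitazone in sh-scr cells and -0.02 and 0.03 for the knockdown with and without the drug.

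**Figure D2:**
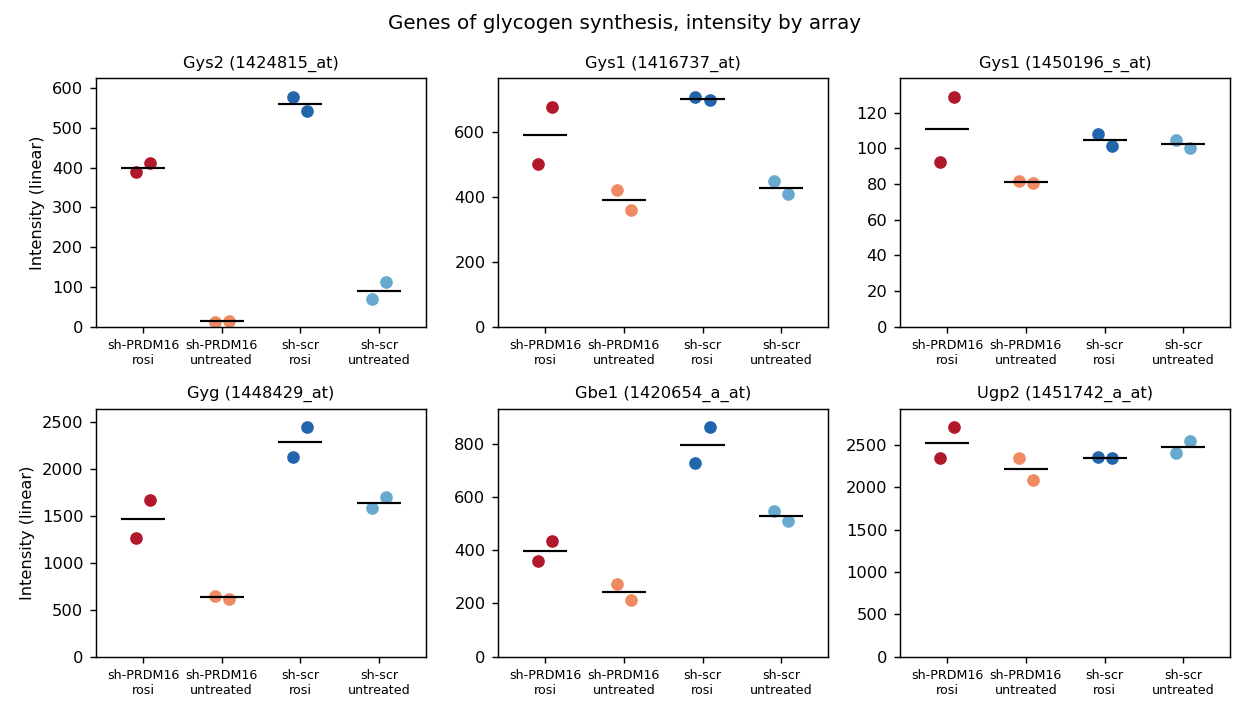
Intensity (linear, from 0) on each array for genes of glycogen synthesis, with the groups from left to right treated sh-PRDM16, untreated sh-PRDM16, treated sh-scr and untreated sh-scr ("rosi" is 1 µM rosiglitazone); points are arrays and bars the mean of 2. Gys2 lies at 11.1 and 14.5 in untreated sh-PRDM16 cells and at 578.0 and 541.2 in treated sh-scr cells, while Ugp2 stays between 2088.7 and 2710.7 on every array.

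Ppp1r3c, the targeting subunit (chromosome 19, 36731731 to 36736604), was lower with the knockdown. Its brighter probe set, 1433691_at, read 232.9 and 367.7 in treated sh-PRDM16, 482.8 and 412.2 in untreated sh-PRDM16, 642.6 and 609.4 in treated sh-scr, and 913.9 and 1201.9 in untreated sh-scr arrays. The order ran opposite to that of Gbe1 for the drug, treated arrays being under untreated arrays of each line with no overlap. This probe set was lower in sh-PRDM16 than in sh-scr cells, both treated (log2 -1.05, SE 0.22, adjusted p = 0.0233) and untreated (log2 -1.20, SE 0.22, adjusted p = 0.0102), at ratios of 0.48 and 0.423. The call in treated cells was lost without either treated sh-scr array or treated sh-PRDM16 replicate 1 (log2 -1.09 to -0.74, adjusted p = 0.0694 to 0.0961). That in untreated cells was lost without untreated sh-scr replicate 2 (log2 -1.01, adjusted p = 0.0651) or untreated sh-PRDM16 replicate 2 (log2 -1.09, adjusted p = 0.0856).

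With rosiglitazone, 1433691_at of Ppp1r3c changed by log2 -0.58 in sh-PRDM16 cells (SE 0.22, adjusted p = 0.144) and fell in sh-scr cells (log2 -0.73, SE 0.22, adjusted p = 0.0391). The fall in sh-scr cells was not called on median-centred arrays (log2 -0.44, adjusted p = 0.134), nor without any 1 of the sh-scr or untreated sh-PRDM16 arrays (log2 -0.92 to -0.54, adjusted p = 0.0513 to 0.194). The dimmer probe set, 1425631_at, read 15 and 16.7, 30.1 and 25.9, 16.6 and 40.7, and 77.6 and 73.1 in the same order of groups, so that untreated sh-scr arrays stood above all others. It fell with rosiglitazone in sh-scr cells (log2 -1.09, SE 0.23, adjusted p = 0.0139) and with the knockdown in untreated cells (log2 -1.06, SE 0.23, adjusted p = 0.020). Neither fall was called on median-centred arrays, and the second was lost without any 1 of the 4 untreated arrays (log2 -1.12 to -0.99, adjusted p = 0.0581 to 0.129), the first without untreated sh-scr replicate 1 (log2 -1.05, adjusted p = 0.0542). The treated sh-scr arrays differed widely, so the first was log2 -0.69 without replicate 1 and -1.49 without replicate 2 of that group, both still called. The other changes of 1425631_at were log2 -0.47 with rosiglitazone in sh-PRDM16 cells (adjusted p = 0.260) and -0.43 with the knockdown in treated cells (adjusted p = 0.238), a value that was -0.83 (adjusted p = 0.0335) and -0.03 without replicate 1 and replicate 2 of treated sh-scr.

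Pygl, the liver isoform of glycogen phosphorylase (chromosome 12, 70190815 to 70227683), was lower with the knockdown. It read 642.4 and 665.9 in treated sh-PRDM16, 718.8 and 680.8 in untreated sh-PRDM16, 972.0 and 1039.5 in treated sh-scr, and 1281.3 and 1418.9 in untreated sh-scr arrays. All 4 sh-PRDM16 arrays were below all 4 sh-scr arrays. The same held for Gbe1, for Ppp1r3c (1433691_at) and for the sums of the macrophage markers. The share of all probe sets that separate in this way was not counted, so it is not read as a result. Pygl was lower in sh-PRDM16 than in sh-scr cells, both treated (log2 -0.61, SE 0.13, adjusted p = 0.0251) and untreated (log2 -0.93, SE 0.13, adjusted p = 0.00293), at ratios of 0.65 and 0.518. The second call held under all 19 alternatives, while the first was lost without any 1 of the 4 treated arrays (log2 -0.66 to -0.56, adjusted p = 0.0669 to 0.150). With rosiglitazone Pygl changed by log2 -0.09 in sh-PRDM16 cells (SE 0.13, adjusted p = 0.725) and fell in sh-scr cells (log2 -0.42, SE 0.13, adjusted p = 0.0419). On median-centred arrays that fall was log2 -0.13 and not called, nor was it called without any 1 sh-scr or treated sh-PRDM16 array (log2 -0.49 to -0.35, adjusted p = 0.062 to 0.237).

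Pygb, the brain isoform (chromosome 2, 150786796 to 150831748), read 250.4 and 211.6 in treated sh-PRDM16, 290.0 and 343.2 in untreated sh-PRDM16, 249.7 and 214.4 in treated sh-scr, and 358.8 and 367.0 in untreated sh-scr arrays. All treated arrays were below all untreated arrays, and the 2 treated groups overlapped. With rosiglitazone it changed by log2 -0.43 in sh-PRDM16 cells (SE 0.15, adjusted p = 0.118) and fell in sh-scr cells (log2 -0.61, SE 0.15, adjusted p = 0.0215). The fall was not called on median-centred arrays (log2 -0.32, adjusted p = 0.24), without either untreated sh-scr array, or without treated sh-scr replicate 2 (log2 -0.63 to -0.51, adjusted p = 0.0845 to 0.132). The knockdown differences were log2 -0.01 with and -0.19 without rosiglitazone (adjusted p = 0.980 and 0.460).

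Pygm, the muscle isoform (chromosome 19, 6384408 to 6398464), was dim on every array and was not called in any comparison. It read 34.2 and 29.7 in treated sh-PRDM16, 28.5 and 26.8 in untreated sh-PRDM16, 41.7 and 28 in treated sh-scr, and 43.0 and 27.1 in untreated sh-scr arrays. The replicate arrays of each sh-scr group spanned almost the whole range of the 8 arrays. Its log2 changes with rosiglitazone were 0.13 in sh-PRDM16 cells (95% interval -0.30 to 0.57) and 0.00 in sh-scr cells (-0.43 to 0.43). Those of the knockdown were -0.07 with the drug and -0.21 without it (adjusted p = 0.822 and 0.531).

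**Figure D3:**
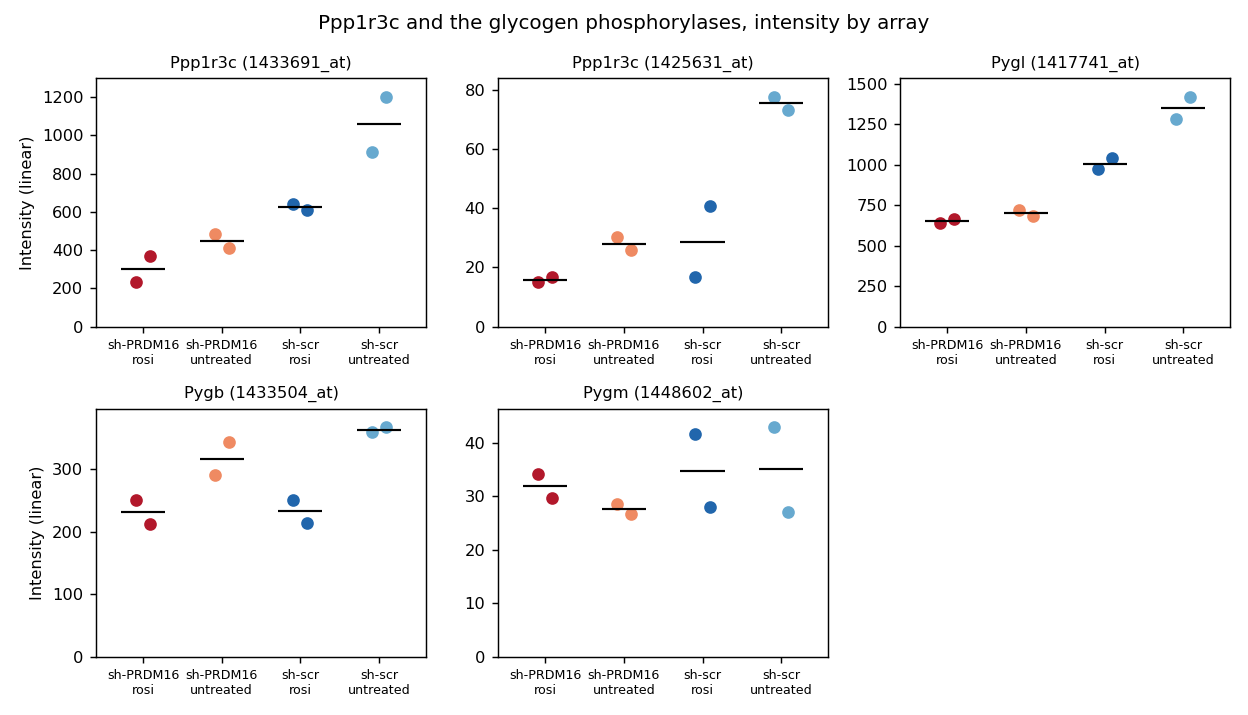
Intensity (linear, from 0) on each array for both probe sets of Ppp1r3c and for the phosphorylases Pygl, Pygb and Pygm, with groups and symbols as in the plot of synthesis genes. Ppp1r3c (1433691_at) reads 232.9 and 367.7 in treated sh-PRDM16 and 913.9 and 1201.9 in untreated sh-scr cells, Pygl is at most 718.8 in all sh-PRDM16 arrays, and Pygb is at most 250.4 in all treated arrays.

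Of 32 further genes of the pathway, 23 were measured and 20 passed the filter, each read by its brightest probe set. Pgm1, the phosphoglucomutase that links glucose 6-phosphate and glucose 1-phosphate, rose in both lines. It read 1573.5 and 1677.2 in treated sh-PRDM16, 1051.0 and 910.8 in untreated sh-PRDM16, 1840.1 and 1715.2 in treated sh-scr, and 1146.7 and 1198.9 in untreated sh-scr arrays. All 4 treated arrays lay above all 4 untreated arrays. Its log2 changes were 0.72 in sh-PRDM16 cells (SE 0.13, adjusted p = 0.0115) and 0.59 in sh-scr cells (SE 0.13, adjusted p = 0.0169), and both were also called on median-centred arrays.

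In sh-PRDM16 cells Pgm1 was the 1 gene of these 20 that rose with rosiglitazone, and 0 fell, where 8.31% of 9460 genes read in the same way rose and 2.40% fell. In sh-scr cells 1 rose and 4 fell, where 4.60% of genes rose and 27.1% fell, so 4 falls of 20 is not above the share among all genes. Those that fell were Phka2 (log2 -0.63, adjusted p = 0.0258) and Phkg2 (-0.52, adjusted p = 0.0222), subunits of the phosphorylase kinase that activates glycogen phosphorylase, the mutase Pgm2 (-0.62, adjusted p = 0.0175) and the phosphatase subunit Ppp1cc (-0.49, adjusted p = 0.0326). On median-centred arrays 3 rose there (Pgm1 and the hexokinases Hk1 and Hk2) and 1 fell (Phka2, log2 -0.33), where 12.1% of all probe sets rose and 8.61% fell. On quantile-normalized arrays 2 rose (Pgm1 and Hk1) and 1 fell (Ppp1cc, log2 -0.32), where 11.3% rose and 11.2% fell. The count of falls and the genes called thus depended on the scale. Against treated sh-scr cells, treated sh-PRDM16 cells had 1 rise, Pgm2 at log2 0.63 (adjusted p = 0.0295), and 0 falls, where 7.52% of genes rose and 4.02% fell. On median-centred and on quantile-normalized arrays that comparison had the same rise and 3 falls, those of Pgm1, Hk2 and the phosphorylase kinase subunit Phkb. Of all probe sets 9.21% and 9.35% rose and 9.83% and 9.87% fell on these scales. Against untreated sh-scr cells, untreated sh-PRDM16 cells had 0 rises and 2 falls, Phka2 (log2 -0.86, adjusted p = 0.0121) and Phkb (-0.53, adjusted p = 0.0467), where 1.46% of genes rose and 12.3% fell. Both falls were also called on median-centred arrays, where Hk1 rose as well (6.56% of all probe sets rose there and 9.47% fell). The synthase kinases Gsk3a and Gsk3b were not called in any comparison, and their log2 changes with rosiglitazone were 0.01 and -0.05 in sh-PRDM16 and 0.00 and -0.26 in sh-scr cells. The median of the 20 genes was log2 0.02 in sh-PRDM16 and -0.26 in sh-scr cells with rosiglitazone, and 0.08 with and -0.12 without it for the knockdown, each within 0.07 of the median over all probe sets.

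**Figure D4:**
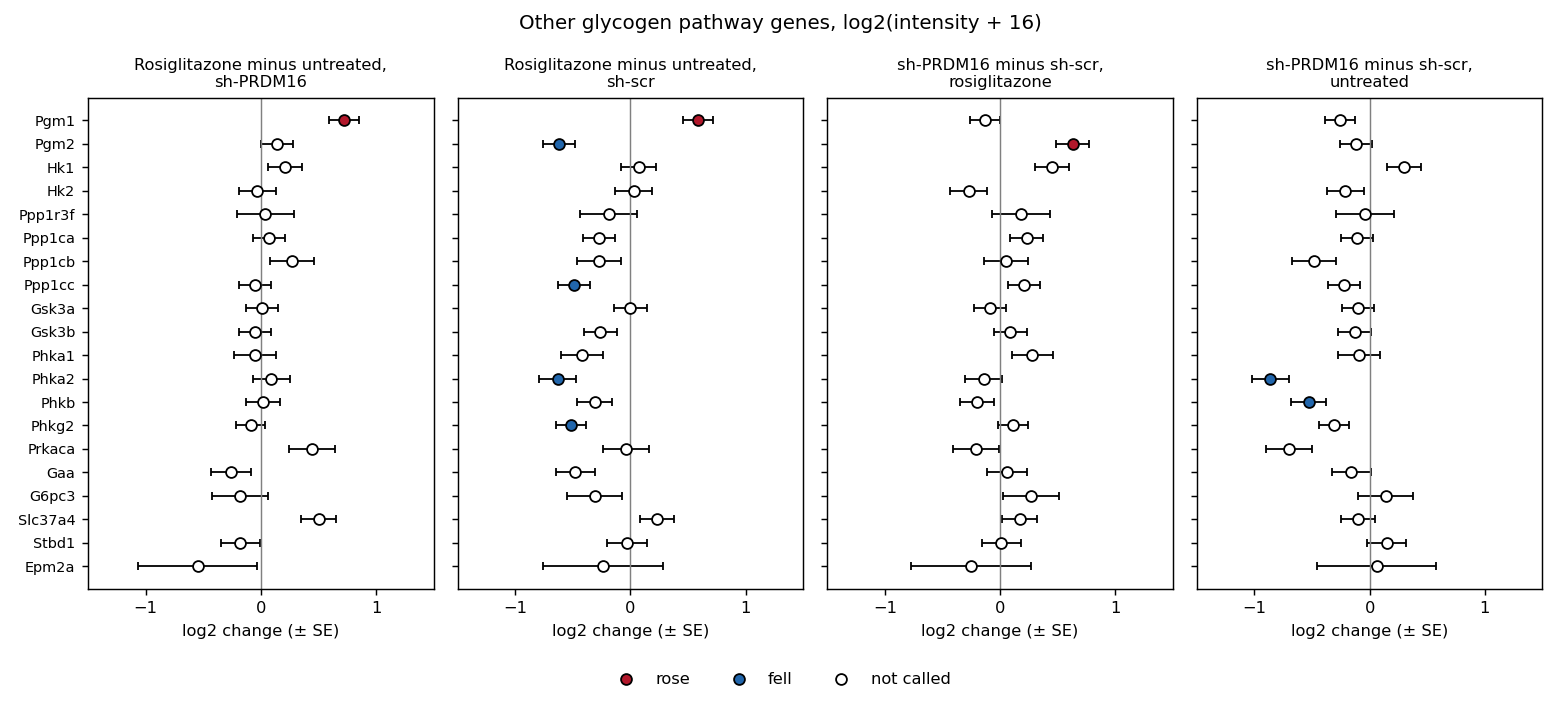
Log2 changes, on the log2(intensity + 16) scale, of 20 further glycogen pathway genes (rows) in the 4 comparisons (panels), with bars for ± 1 standard error of the limma fit and filled points for genes past the threshold. Pgm1 is filled on the right in both rosiglitazone panels, at 0.72 and 0.59.

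The 5 genes whose values ran most like those of Gys2 over the 8 arrays, by Pearson's r on the log2 scale, were 4931406C07Rik (0.997), Chchd10 (0.996), Slc25a20 (0.996), Cidec (0.995) and Retsat (0.995). Chchd10 is a mitochondrial protein, Slc25a20 the mitochondrial carnitine carrier, Cidec a lipid droplet protein that is also among the adipocyte markers, and Retsat retinol saturase. The r is a measure of likeness over 4 groups of 2 arrays that share their spread between groups, and no p is given for it. Cidec, for example, read 3103.6 and 3647.6 in treated sh-PRDM16, 234.5 and 221.7 in untreated sh-PRDM16, 5565.0 and 5696.6 in treated sh-scr, and 906.1 and 993.6 in untreated sh-scr arrays, the same order of groups as Gys2. Slc25a20 read 4148.2 and 4106.4, 1419.2 and 1307.2, 4981.6 and 5154.8, and 2073.4 and 2495.2 in the same order of groups, again with no overlap.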

How the data were processed

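The deposited table held array intensity values for 22690 probe sets on 8 arrays, on a linear scale from 0.1 to 22736.2. Per the labels' protocols, total RNA isolated with Trizol was copied with an oligo-dT primer and transcribed into biotin-labelled cRNA. The summarization and any normalization by the authors were not given in the sources used here, and no detection calls were used. Probe sets were named from the platform annotation: 20380 had 1 gene, 691 several, 1555 none, and 64 were controls. Groups came from the sample titles. Probe sets with 1 gene were tested after leaving out the 25% with the lowest mean, as log2(intensity + 16) on the deposited scale, with limma 3.58.1 (R 4.3.3; lmFit and eBayes, 1 mean per group, 4 residual and 4.69 prior degrees of freedom, two-sided, Benjamini-Hochberg over 15285 probe sets). The fit was tested on simulated data with independent normal noise and no shift of whole arrays, so that test does not bear on the choice of scale.

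The 9 genes, the further pathway genes and the marker lists (adipocyte, hepatocyte, skeletal muscle, macrophage, endothelium, preadipocyte and fibroblast) were chosen with earlier results of these data known. Gys2 was tested only in sh-scr cells. The text names every member gene, the called pathway genes (at most 4 in each direction and comparison) and the 5 genes most like Gys2; Gsk3a, Gsk3b, Hk1, Hk2 and Phkg1 were named after their values were seen. Correlations of replicate differences between groups, over probe sets, were -0.012 to 0.04, so the replicate numbers were not taken to pair the arrays. Alternatives were median centring, quantile normalization, no filter or a 50% filter, pseudocounts of 1 and 64, a trended prior, 1 value per gene (brightest or mean), the replicate number as a block, each comparison fitted on its own arrays, and omission of each array in turn.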

Additional observations from a re-analysis of the deposited data

Results flagged for a closer look

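The probe set 1451742_a_at of Ugp2, the enzyme that makes UDP-glucose, was set apart because its arrays moved in opposite directions in the 2 lines. In sh-PRDM16 cells both treated arrays (2345.0 and 2710.7) lay above both untreated arrays (2343.1 and 2088.7), and in sh-scr cells both treated arrays (2353.8 and 2343.6) lay below both untreated arrays (2398.9 and 2542.6). The difference of the responses was log2 0.26 (SE 0.19, adjusted p = 0.391 in limma), which did not pass, and the median of this difference over all probe sets was log2 0.32. On median-centred arrays both responses were above 0, at log2 0.17 in sh-PRDM16 and 0.22 in sh-scr cells. On quantile-normalized arrays they were 0.07 and 0.16, so the opposite directions were seen on neither of these scales. Groups of 2 arrays were too small for a check on outlying arrays.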

How the results depend on the processing

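The 17 called changes of single probe sets, Gys2 left aside, kept their direction in all 317 recomputed values, and 78 of these no longer passed the threshold, 51 of them with 1 array left out (the values stand beside each gene). The count of called glycogen probe sets with rosiglitazone in sh-scr cells was 7 (29.4% of all probe sets were called). It became 4 on median-centred (20.7%) or quantile-normalized (22.5%) arrays, with 4 rises and 0 falls on each. Without the filter it was 4 (16.1%), and it was lower still without any 1 of the 4 sh-scr arrays. In sh-PRDM16 cells the count of 2 (9.77% of all probe sets) became 1 without the filter (5.65%) or with a pseudocount of 1 (7.92%). It became 5 of the 11 left by the 50% filter (23.3%), and 4 with a pseudocount of 64 (15.8%) or a trended prior (17.4%). These counts moved with the share called among all probe sets, and the count was no higher with 1 array left out. The replicate number as a block left 1 there, Gyg, and ended the call of Gbe1 in both lines and of Pygl in sh-scr cells but no other call, and without evidence of pairing this is not read as a weaker effect. For the knockdown, the count of 4 with the drug became 2 without the filter or with a pseudocount of 1 and 0 to 3 with 1 array left out, and that of 5 without the drug lay between 3 and 5 with 1 array left out. The difference of responses had 1 call, Gyg, with the 50% filter, a pseudocount of 64 or a trended prior. Of all probe sets 9.98%, 4.56% and 8.19% were called under these. Over all probe sets the share called ranged over the alternatives from 5.93 to 54.8% and 4.19 to 23.3% with rosiglitazone in sh-scr and sh-PRDM16 cells, 2.90 to 29.3% and 4.11 to 26.2% for the knockdown with and without it, and 0 to 9.98% for the difference of responses.

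Of the changes that were not called, 25 were followed over the alternatives, Gys2 left aside. They were of the brightest probe set of each gene and the dimmer ones of Gys1 and Ppp1r3c. For the difference of responses only Gyg and Ugp2 were followed. Of these 25, 14 kept their sign under every alternative and 11 were turned under 1 or more. The other Ugp2 probe sets and differences of responses were not counted, and some of them also turned on median-centred arrays. The values that follow are of the 25. On median-centred and quantile-normalized arrays the sign was turned for Pygm (log2 0.29 and 0.16) and Ugp2 (0.22 and 0.16) with rosiglitazone in sh-scr cells, for Gys1 1416737_at (0.05 and 0.06) and Ugp2 (0.03 and 0.07) with the knockdown without the drug, for Gys1 1450196_s_at (-0.07 on both) and Ugp2 (-0.02 and -0.03) with it, and for the difference of responses of Ugp2 (-0.05 and -0.09). Pygm was at 0.00 with a pseudocount of 1. With 1 array left out, Pygm ranged from -0.23 to 0.23 with rosiglitazone in sh-scr cells, and from -0.27 to 0.12 and -0.43 to 0.02 for the knockdown with and without it. Gys1 1450196_s_at ranged from -0.01 to 0.07 with rosiglitazone in sh-scr cells and -0.15 to 0.26 for the knockdown with it, where Pygb ranged from -0.12 to 0.11 and Ugp2 from 0.00 to 0.21. Dropping an array leaves a lone array whose spread is assumed to be that of the other groups. The cause of the other changes was not tested, and 2 arrays per group limit every call.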

Other observations

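Treated sh-PRDM16 arrays set against untreated sh-scr arrays show how the glycogen genes differed when both the drug and the knockdown were present. Gys2 read 388.7 and 411.1 against 68.6 and 111.3, Gyg 1268.1 and 1671.2 against 1584.0 and 1701.2, and Gbe1 361.0 and 436.4 against 548.0 and 509.6. Ppp1r3c (1433691_at) read 232.9 and 367.7 against 913.9 and 1201.9. Pygl read 642.4 and 665.9 against 1281.3 and 1418.9, Pygb 250.4 and 211.6 against 358.8 and 367.0. Gys1 (1416737_at) read 503.2 and 679.2 against 450.0 and 408.1. Gys2 and this Gys1 probe set were thus higher on both arrays, and Gbe1, Ppp1r3c, Pygl and Pygb lower. Gyg, Ugp2, Pygm and the other Gys1 probe set overlapped. The share of all probe sets that separate in this pair was not counted, so separation is not read as a result. This pair of groups was not tested.

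Phkg1, the muscle form of the catalytic subunit of phosphorylase kinase, had a mean of 12.6, below the filter on low values, and was noticed after its values were seen. It read 0.7 and 0.7 in treated sh-PRDM16, 2.7 and 0.9 in untreated sh-PRDM16, 1.1 and 1.2 in treated sh-scr, and 43.2 or more in untreated sh-scr arrays. G6pc, the catalytic subunit of liver glucose 6-phosphatase, read between 1.3 and 8.4 on every array, and Ppp1r3a, the muscle targeting subunit of the phosphatase, between 3.7 and 38.9.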
